A study of Mus musculus with 2 samples.

Results

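Gamma-delta T cells were examined in single-cell RNA data from the injured kidneys of 2 mice, and 314 of 17701 kept barcodes were taken as such cells (called members here). They were chosen by their own counts of unique molecular identifiers (UMIs), each of which stands for 1 captured RNA molecule. A member had at least 2 UMIs over the CD3 genes *Cd3d*, *Cd3e* and *Cd3g* and at least 2 UMIs over *Trdc* and *Tcrg-C1*, the constant segments of the delta and gamma receptor chains. Barcodes with 10 or more UMIs per 10000 of the macrophage genes *C1qa*, *C1qb* and *C1qc*, or with 4 or more UMIs of the proliferation genes *Mki67* and *Top2a*, were left out. The levels of these genes in the members are therefore set by the choice and are not results.

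The *Cre-* library came from 1 littermate control without the recombinase, and the library labelled *PHDTiEC* from 1 *Cdh5-CreERT2* mouse with floxed *Phd1*, *Phd2* and *Phd3*, the oxygen sensors encoded by *Egln2*, *Egln1* and *Egln3*. Both mice were 8 to 10 weeks old, had 25 minutes of unilateral renal ischemia followed by reperfusion, received 4 injections of 3 mg tamoxifen from the day after surgery, and were examined on day 14. The *Cdh5* promoter drives the recombinase in endothelium, so T cells were not its target, and a cell suspension of the whole kidney was loaded without sorting. With 1 mouse per genotype, mouse, dissociation, library and genotype cannot be told apart, no test between the libraries was possible, and all intervals below are 95% intervals that cover counting error only. In endothelial barcodes (404 in the *Cre-* library and 550 in the other), *Egln1* was at 67.4 and 186 CPM (UMIs scaled to the class total), *Egln2* at 38.2 and 37.2 CPM, and *Egln3* at 24.2 and 142 CPM. *Egln1* and *Egln3* were thus higher, not lower, in the library labelled *PHDTiEC*, although 3′ counts do not show whether the floxed exons were removed. Within the gamma-delta T cells the log2 ratio between the libraries was -0.28 for *Egln1* (-0.85 to 0.30), 0.78 for *Egln2* (-0.08 to 1.72) and 0.18 for *Egln3* (-0.82 to 1.25).

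Gamma-delta T cells carry an antigen receptor made of a gamma and a delta chain in place of the alpha and beta chains of conventional T cells. Many that live in barrier and other tissues are programmed in the thymus to make interleukin-17A and respond to interleukin-1 and interleukin-23 without prior priming, while others make interferon-gamma. Interleukin-17-producing cells with the Vgamma6 and Vdelta1 segments arise in fetal life and settle in tissues, whereas those with Vgamma4 also circulate through lymph nodes. Interleukin-17 is known as a signal that brings neutrophils into tissue.

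The receptor segments that split the members into groups are shown first, because the split below rests on reads from them. Each line gives the last 90 bases of the annotated V segment from 5′ to 3′ (GENCODE vM21 on GRCm38), and the capitals mark the codon of the conserved cysteine with which the V segment's part of the third hypervariable loop begins. *Trdv4*, the Vdelta1 segment (chromosome 14, 54074905 to 54075515, plus strand), lies upstream of *Trdc* (54142851 to 54148868). *Tcrg-V6*, the Vgamma6 segment (chromosome 13, 19190356 to 19190929), and *Tcrg-V4*, the Vgamma4 segment (19184974 to 19185506), both lie upstream of *Tcrg-C1* (19214103 to 19217024), all on the plus strand.
Trdv4: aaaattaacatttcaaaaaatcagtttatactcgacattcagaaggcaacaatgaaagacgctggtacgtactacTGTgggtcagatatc
Tcrg-V6: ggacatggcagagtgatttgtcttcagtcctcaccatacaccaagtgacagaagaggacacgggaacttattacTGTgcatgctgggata
Tcrg-V4: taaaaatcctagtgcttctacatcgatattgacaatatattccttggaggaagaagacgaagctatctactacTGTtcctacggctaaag

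The *Cre-* library held 131 members among 8468 kept barcodes, or 1.55% (1.30 to 1.83), and the library labelled *PHDTiEC* held 183 among 9233, or 1.98% (1.71 to 2.29). The ratio of the shares was 1.28 (1.03 to 1.60). Among barcodes that passed the CD3, *C1q* and proliferation limits (557 and 662), the members made up 23.5% (20.1 to 27.3) and 27.6% (24.3 to 31.2), a ratio of 1.18 (0.968 to 1.43) whose interval holds 1. The other CD3 barcodes were 408 and 436 without any *Trdc* or *Tcrg-C1* UMI, called other T cells here, and 18 and 43 with exactly 1 such UMI. Members had a median of 3412 and 3264 UMIs and of 1419 and 1427 genes, close to the medians of 3372.5 and 3644 UMIs in the other T cells. The libraries shared 27 kept barcodes, none of which was a member in both.

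Receptor transcripts were mixed in the members. Both *Trdc* and *Tcrg-C1* were seen in 103 of 131 members (78.6%) of the *Cre-* library and in 144 of 183 (78.7%) of the library labelled *PHDTiEC*. *Trac*, the constant segment of the alpha chain, was seen in 38.9% (30.5 to 47.8) and 26.2% (20.0 to 33.2), against 77.7% and 79.6% of other T cells, and 17 and 11 members had more *Trac* than *Trdc* UMIs. *Trbc1* or *Trbc2*, the constant segments of the beta chain, were seen in 119 of 131 (90.8%) and 165 of 183 (90.2%) of members. *Trbc2* was seen in 81.7% and 84.7% of members, 93.9% and 92.9% of other T cells and 25.0% and 28.0% of the natural killer (NK)-like barcodes. The coreceptor gene *Cd4* was seen in 4 members of each library, and *Cd8a* or *Cd8b1* in 11 and 10. Macrophages, which should lack these receptors, had a *Trdc* UMI in 0.0% and 0.1% of 2844 and 3089 barcodes at medians of 6946 and 7386 UMIs. These NK-like barcodes, with no CD3 UMI and at least 2 UMIs over *Ncr1*, *Klrb1c* and *Klre1*, had a *Trdc* UMI in 12.5% of 40 and 12.0% of 50. The transcripts of *Tcrg-C1* and *Tcrg-C2* are 96.1% identical over 909 aligned bases, so their reads may be split between the 2 genes.

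Members just inside the limit were close to the rest in *Il17a* and *Cxcr6* and not in *Blk*, *Cd163l1* or *Trdv4*. The 14 and 12 members with exactly 2 UMIs over *Trdc* and *Tcrg-C1* had an *Il17a* UMI in 57.1% and 58.3%, those with 3 or more in 63.2% and 61.4%, and the 18 and 43 barcodes just outside, with 1 such UMI, in 33.3% and 46.5%. *Trdv4* was seen in none of the members at exactly 2 UMIs, in 55.6% and 64.3% of those at 3 or more, and in 1 barcode of each library just outside the limit.

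Marker genes of other cell types were seen in part of the members, and whether their UMIs came from such cells was not tested. At least 2 UMIs of the defining markers of another lineage were seen in 48 of 131 and 64 of 183 members, most often macrophage markers (34 and 50), then distal tubule (15 and 8) and endothelial markers (6 and 13). Markers of stroma were seen at that level in 0 and 7 members, and 1 barcode of the *Cre-* library held 750 UMIs of proximal tubule markers. The B cell genes *Cd79a* and *Ms4a1* were at 0 in all members, so the 2 and 6 members with B cell markers held *Cd79b* alone. Barcodes with more than 10000 UMIs were 7 of 131 and 18 of 183 members but held 21.8% and 50.6% of the members' UMIs, and 6 of the 7 and all 18 carried such markers. Doublets were not removed by a caller, so the fits and the main differences between the libraries are also given for the 124 and 165 members with at most 10000 UMIs, a limit chosen after seeing the data. Shares of barcodes with a UMI are given for all members unless stated.

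*Il17a*, the signature cytokine of the type 17 program, was seen in most members and in few other T cells. It was seen in 62.6% (53.7 to 70.9) of members of the *Cre-* library and 61.2% (53.7 to 68.3) of those of the library labelled *PHDTiEC*. The same share was 11.8% and 8.7% in other T cells, 0.0% in NK-like barcodes of both libraries and 0.3% and 0.1% in macrophages. The part of free RNA in these shares was not tested. With every barcode thinned to 1250 UMIs, the shares were 52.7% and 45.9% in members and 9.4% and 6.2% in other T cells. *Il17a* was one of the markers named for these cells from earlier results of these data, so this difference is a description.

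The level of *Il17a* varied widely among members. Per 10000 UMIs, members of the *Cre-* library ranged from 0 to 342 with a median of 7.91, and those of the library labelled *PHDTiEC* from 0 to 211 with a median of 3.46. The 10 highest barcodes gave 45.7% of the members' 945 *Il17a* UMIs in the first and 40.0% of 1261 in the second. Among members with any *Il17a* UMI, the medians were 16.1 and 12.5 per 10000, and the ranges of the libraries overlapped. Members held 48.9% of all *Il17a* UMIs of kept barcodes in the *Cre-* library and 73.3% in the other, and other T cells held 28.1% and 12.7%. *Il17f*, which encodes a related cytokine, was seen in 9.9% and 7.1% of members and had 29 and 28 UMIs.

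**Figure D1:**
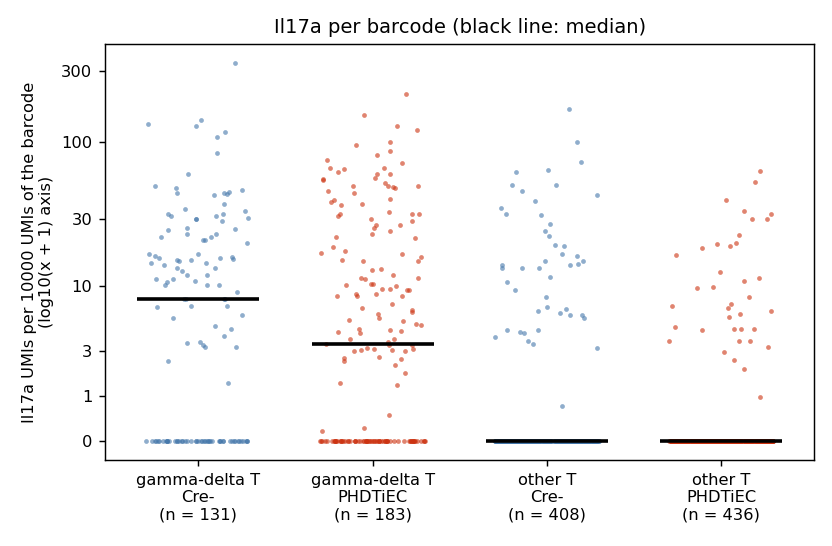
*Il17a* UMIs per 10000 UMIs of each barcode (log10 of the value plus 1), with 1 point per barcode, for gamma-delta T and other T cells of each library; black lines are medians. Members spread from 0 to 342 and 211 with medians of 7.91 and 3.46, while the medians of other T cells were 0.

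Other genes of the type 17 program accompanied *Il17a*. Of transcription factors, *Maf* was seen in 80.9% and 83.6% of members against 47.1% and 53.2% of other T cells, and *Sox13*, which programs these cells in the thymus, in 22.1% and 27.9% against 2.7% and 2.5%. Of cytokine receptors, *Il7r*, the receptor of a T cell survival cytokine, was seen in 85.5% and 85.2% against 45.6% and 53.0%. *Il1r1* was seen in 17.6% and 24% and *Il23r* in 21.4% (14.7 to 29.4) and 12.6% (8.1 to 18.3), against 5.9% and 7.1% and 1.7% and 1.8% of other T cells. *Cxcr6*, a chemokine receptor of tissue lymphocytes and one of the named markers, was seen in 92.4% and 91.3%, and *Ccr2*, which guides cells to inflamed tissue, in 75.6% and 77.6%. *Ramp1*, part of the receptor of the neuropeptide CGRP, was seen in 85.5% and 84.2% against 30.4% and 34.4%. In proximal tubule barcodes, which should lack *Il7r*, *Cxcr6* and *Ccr2*, the shares were at most 5.7% at medians of 13067 and 11594 UMIs.

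The kinases and coreceptors that start T cell receptor signals were unevenly seen. *Blk*, a Src family kinase named among the markers, was seen in 63.4% (54.5 to 71.6) and 68.9% (61.6 to 75.5) of members and in 2.9% and 3.2% of other T cells. The related kinase *Lck* had the opposite pattern, with 13.7% and 12.6% of members against 65.7% and 70.4%, and at 1250 UMIs with 5.2% and 4.1% against 31.3% and 33.9%. *Cd2*, *Cd5* and *Cd28*, which encode adhesion, inhibitory and costimulatory receptors, were seen in 9.9% to 22.1% of members and in 44.3% to 66.3% of other T cells. *Lat*, the adaptor downstream, was seen in 82.4% and 68.9% of members against 68.9% and 74.1%.

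**Figure D2:**
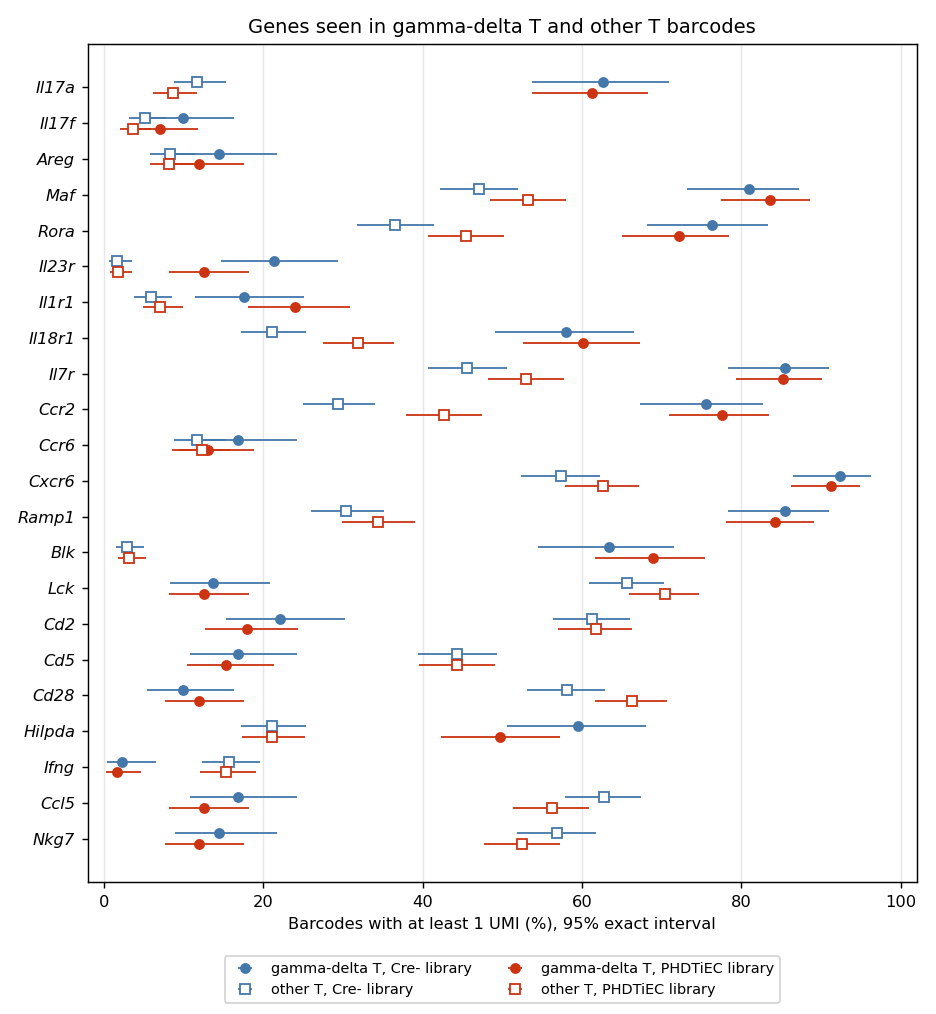
Share of barcodes with at least 1 UMI of each gene (%), with exact binomial 95% intervals, for gamma-delta T (filled) and other T cells (open) of the *Cre-* library (blue) and the library labelled *PHDTiEC* (red). *Il17a*, *Blk* and *Ramp1* were seen in more of the members and *Lck*, *Cd28* and *Ccl5* in fewer, in both libraries.

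Genes of the type 1 and cytotoxic program were seen in few members. *Ifng*, which encodes interferon-gamma, was seen in 2.3% and 1.6% of members against 15.7% and 15.4% of other T cells. *Ccl5*, a chemokine of cytotoxic cells, was seen in 16.8% and 12.6% against 62.7% and 56.2%, and *Nkg7*, a cytotoxic granule gene, in 14.5% and 12.0% against 56.9% and 52.5%. At least 1 of *Il17a*, *Il23r*, *Ccr6*, *Cd163l1*, *Blk* and *Sox13* was seen in 92.4% (86.4 to 96.3) and 95.1% (90.9 to 97.7) of members, and at least 1 of *Ifng*, *Tbx21*, *Eomes*, *Nkg7*, *Klrd1*, *Ccl5*, *Xcl1* and *Prf1* in 25.2% (18.0 to 33.5) and 21.3% (15.6 to 28.0). At up to 10000 UMIs the panels were seen in 92.7% and 94.5% and in 23.4% and 20.6%. The first panel was seen in 21.1% and 23.9% of other T cells and in 7.5% and 6.0% of NK-like barcodes. The second panel was seen in 70.6% and 65.4% of other T cells and in 97.5% and 100.0% of NK-like barcodes. Only 6 and 5 members had the second panel alone, and 4 members of each library had neither.

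Cytokines of other programs were seen in fewer members than *Il17a*. *Areg*, a repair factor, was seen in 14.5% and 12.0% against 8.3% of other T cells in both libraries, and 1 barcode of the *Cre-* library held 39.4% of its 109 *Areg* UMIs. *Csf2* was seen in 8.4% and 2.2% against 0.98% and 0.69%, and *Il22* in 1.5% and 1.6% against 0.49% and 0.46%. *Il10* was at 0 in all members, which allows a share of up to 2.29% and 1.64% of members with a UMI.

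Reads from V segments split the members further. *Trdv4* was seen in 65 of 131 and 110 of 183 members and *Tcrg-V6* in 24 and 54, and 22 and 53 had both, so nearly every member with *Tcrg-V6* also had *Trdv4*. Either was seen in 51.1% (42.3 to 60.0) of members of the *Cre-* library and 60.7% (53.2 to 67.8) of those of the library labelled *PHDTiEC*. *Tcrg-V4* was seen in 12 and 14 members, of which 0 and 7 also had *Trdv4* or *Tcrg-V6*. A 3′ library reads V segments only now and then, so members without such a UMI are not known to use other segments. The depth of members with and without these segments was alike, with medians of 3354 and 3447.5 UMIs in the first library and 3203 and 3328.5 in the second.

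The clearest difference between members with and without *Trdv4* or *Tcrg-V6* lay in a pair of neighbouring genes that encode scavenger receptors of the same family. *Cd163l1*, also called Scart1, was seen in 77.6% of members with the segments and 10.9% of those without in the *Cre-* library, and the shares were 81.1% and 18.1% for the library labelled *PHDTiEC*. *5830411N06Rik*, also called Scart2, was seen in 1 of 67 members with the segments and 33 of 64 without in the first library, and in 0 of 111 and 30 of 72 in the second. At up to 10000 UMIs the difference was 66.6 and 66.1 percentage points for *Cd163l1* and -47.6 and -43.1 for *5830411N06Rik*. Only 1 member of each library had both scavenger genes. The split was made after these values had been seen and carries no test, and the *Trdv4* and *Tcrg-V6* counts that define it are no result.

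The 2 scavenger receptor genes lie 16138 bases apart on chromosome 7, *Cd163l1* from 140218267 to 140231145 and *5830411N06Rik* from 140247284 to 140300736, both on the plus strand of GRCm38. The best-scoring local alignment of the 2 transcripts had 77.8% identical bases over 2222 aligned bases.

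Other genes followed the split in both libraries. Of 5824 genes seen in at least 10% of members of either library, 12 differed by at least 20 percentage points in the same direction in both, 8 of them higher with the segments, and these include *Trdv4* and *Tcrg-V6* themselves. The 4 lower genes were *5830411N06Rik*, *Klf2*, *Ms4a4b*, which was seen in 16.4% with the segments and 54.7% without and in 12.6% and 36.1%, and *Fyb*, an adaptor of receptor signals, in 26.9% and 46.9% and in 21.6% and 41.7%. The genes named here were chosen after their values had been seen. *Pdcd1*, which encodes the inhibitory receptor PD-1, was seen in 53.7% of members with the segments and 18.8% without in the *Cre-* library, and in 66.7% and 22.2% in the other. *Tox*, *S1pr1* and *Ccr6* had smaller differences, under 20 points in 1 or both libraries. *Tox*, a factor of persistently stimulated T cells, was seen in 29.9% and 12.5%, and in 38.7% and 12.5%. In contrast, *Klf2* and *S1pr1*, a factor and its target receptor for leaving tissue, were seen more often without the segments. *Klf2* was seen in 14 of 67 with and 32 of 64 without in the first library and in 27 of 111 and 32 of 72 in the second, and *S1pr1* in 10.4% and 29.7% and in 12.6% and 40.3%. *Ccr6*, a chemokine receptor, was seen in 9.0% and 25.0% and in 5.4% and 25.0%. *Il17a* was seen in 65.7% and 59.4% and in 63.1% and 58.3%, with overlapping intervals.

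**Figure D3:**
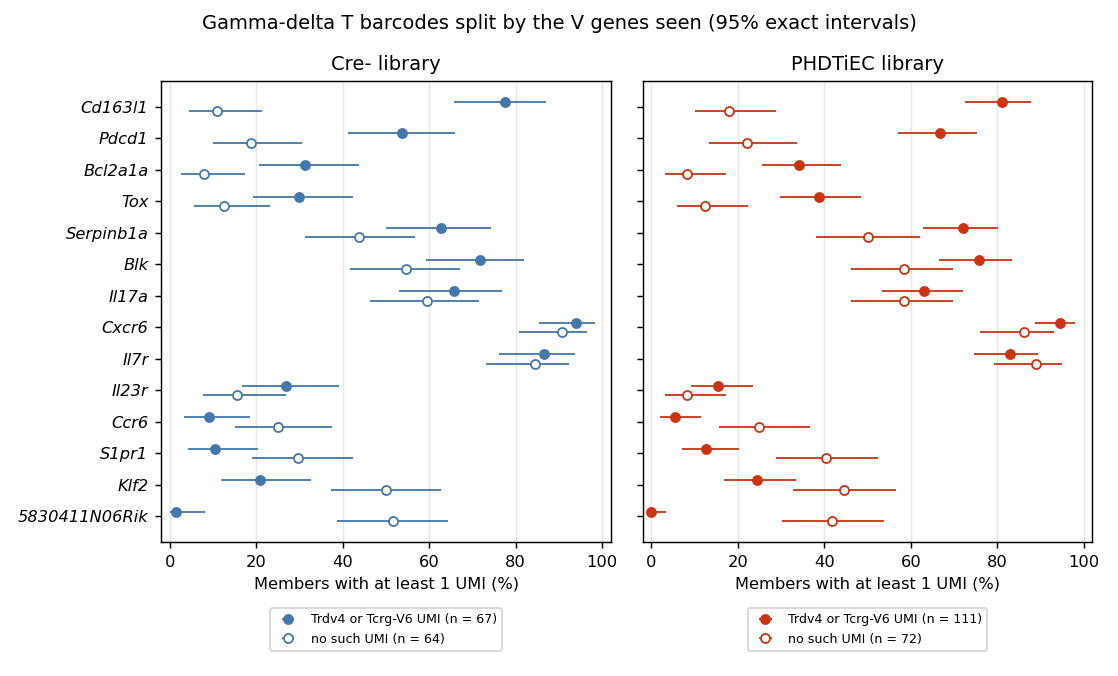
Share of gamma-delta T members with at least 1 UMI of each gene (%), with exact binomial 95% intervals, for members with a *Trdv4* or *Tcrg-V6* UMI (filled; 67 of the *Cre-* mouse and 111 from the library labelled *PHDTiEC*) and without (open; 64 and 72). *Cd163l1* and *Pdcd1* lie higher and *5830411N06Rik*, *Klf2* and *S1pr1* lower with these segments in both panels, while *Il17a*, *Cxcr6* and *Il7r* overlap.

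The members were then compared with the other T cells by summing UMIs in each library and testing the 4 sums with edgeR's quasi-likelihood test, with the library as a block and Benjamini-Hochberg adjustment over 13517 genes. The genes that chose the members were not tested. At an adjusted p under 0.05, 58 genes (0.429%) rose and 43 (0.318%) fell in members. Among barcodes with at most 10000 UMIs, 418 of 10581 genes (3.95%) rose and 377 (3.56%) fell, and 92 of the 101 genes called with all barcodes were called again, all in the same direction. That fit also had 1 residual degree of freedom and gave very small p-values (for *Trdv4*, edgeR unadjusted p = 2.65e-16). Its calls, here and below, are therefore uncertain. In the other T cells 51 and 52 barcodes exceeded 10000 UMIs and held 52.0% and 51.0% of their UMIs.

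Of the 27 genes of the type 17 list, which was drawn up with earlier results known, 13 rose and 0 fell (23 and 0 at up to 10000 UMIs), with a median log2 fold of 1.61 against -0.07 over all genes tested. The share of all genes that rose was 0.429%, and 3.95% at up to 10000 UMIs. *Cd163l1* had 234 and 215 CPM in members and 1.10 and 0.676 CPM in other T cells, a log2 fold of 7.88 ± 0.36 (SE; edgeR adjusted p = 3.17e-05; higher in 2 of 2 libraries). *5830411N06Rik* had 129 and 53.4 CPM against 5.13 and 8.11, a log2 fold of 3.61 ± 0.45 (edgeR adjusted p = 0.00997). *Il23r* rose by 3.52 and *Sox13* by 3.28 on the log2 scale, *Zbtb16*, a factor of innate-like lymphocytes, by 3.08 and *Ramp1*, from the activation list, by 2.01. *Maf* had a log2 fold of 0.89 and *Il7r* of 1.43, which did not pass with all barcodes (edgeR adjusted p = 0.329 and 0.117) and did pass at up to 10000 UMIs (0.92 and 1.13). *Ccr6* passed in neither fit, with a log2 fold of 0.41 and 0.01.

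The coreceptors of conventional T cells fell in members, as did part of the signalling list. *Cd4*, *Cd8a* and *Cd8b1* all fell, with log2 folds of -3.08, -2.71 and -2.65. Of 14 receptor signalling genes 4 fell and 1, *Blk*, rose, beside 0.318% and 0.429% of all genes. *Lck* had 54.1 and 34.4 CPM in members and 185 and 202 CPM in other T cells, a log2 fold of -2.19 ± 0.29 (edgeR adjusted p = 0.0132). *Cd28* fell by 2.07, *Cd6* by 2.21 and *Cd5* by 1.56 on the log2 scale.

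Of 26 type 1 and cytotoxic genes 0 rose and 3 fell (1 and 14 at up to 10000 UMIs), with a median log2 fold of -0.92. The share of all genes that fell was 0.318%, and 3.56% at up to 10000 UMIs. *Ifng* had 5 and 3 UMIs in members and 111 and 159 in other T cells, a log2 fold of -3.36 ± 0.51 (edgeR adjusted p = 0.0216), *Ccl5* fell by 2.95 on the log2 scale and *Ly6c2* fell by 2.16. *Nkg7* had a log2 fold of -2.17 (edgeR adjusted p = 0.0597) that passed at up to 10000 UMIs, and the 1 gene that rose there was *Klrk1*, which encodes the activating receptor NKG2D. Of 21 interferon-induced genes 0 rose and 2 fell (0 and 14 at up to 10000 UMIs), beside the same shares of all genes. *Ifi27l2a* had 73.7 and 66.3 CPM in members and 574 and 459 CPM in other T cells, a log2 fold of -2.89 ± 0.27 (edgeR adjusted p = 0.00208), and was seen in 69.1% and 68.6% of macrophages, whose part in this difference was not tested.

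Activation genes moved in both directions. *Pdcd1* had 131 and 163 CPM in members and 49.9 and 38.9 CPM in other T cells, a log2 fold of 1.72 ± 0.25 (edgeR adjusted p = 0.0198), and *Il2ra*, the high-affinity interleukin-2 receptor chain, rose by 1.84 on the log2 scale. *Tnfrsf4* and *Cd40lg*, which encode OX40 and CD40 ligand of helper T cells, fell by 1.89 and 1.52. *Ccr7*, which guides cells to lymph nodes, fell by 2.77.

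Among 23 genes listed as targets of hypoxia-inducible factor, 2 rose and 0 fell, and at up to 10000 UMIs 2 of 21 rose and 0 fell. The shares of all genes that rose in these fits were 0.429% and 3.95%. *Hilpda*, which encodes a lipid droplet protein, had 462 and 207 CPM in members and 80.0 and 57.5 CPM in other T cells, a log2 fold of 2.17 ± 0.28 (edgeR adjusted p = 0.0122). *Ero1l*, an oxidase of the endoplasmic reticulum, rose by 1.33 on the log2 scale. Of 22 glycolysis genes 0 rose or fell with all barcodes, while 2 of 19, *Hk2* and *Pfkp*, rose at up to 10000 UMIs (1.07 and 0.77).

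Several of the genes with the largest folds had few UMIs. *Tns4*, *Cryba4*, *Cdh10*, *Gm9961*, *Chad*, *Abi3bp*, *Clnk*, *Nxnl2* and *A130023I24Rik* rose by 3.56 to 5.61 on the log2 scale, with 16 to 88 UMIs per library in members and 0 to 22 in other T cells. Receptor genes that share a locus with those that chose the members also stood here. *Trdv4* had 199 and 529 UMIs in members and 3 and 0 in other T cells, *Tcrg-V6* 36 and 88 against 1 and 1, and *Tcrg-C4* 83 and 89 against 13 and 14. Among the lowest were the B cell genes *Igkc* (log2 fold of -4.29) and *Cd79a* (0 UMIs in members against 68 and 29). *Slc26a4*, *Ren1* and *Retnla*, known from tubule, juxtaglomerular and myeloid cells, and *Hmx2* were also among them. The part of such cells in these folds was not tested. *Igkc* and *Cd79a* kept their call at up to 10000 UMIs, *Slc26a4* and *Retnla* lost theirs, and *Hmx2* and *Ren1* were too low to test there. The interferon-induced *Iigp1* fell by 3.21 and *BE692007* by 3.50.

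**Figure D4:**
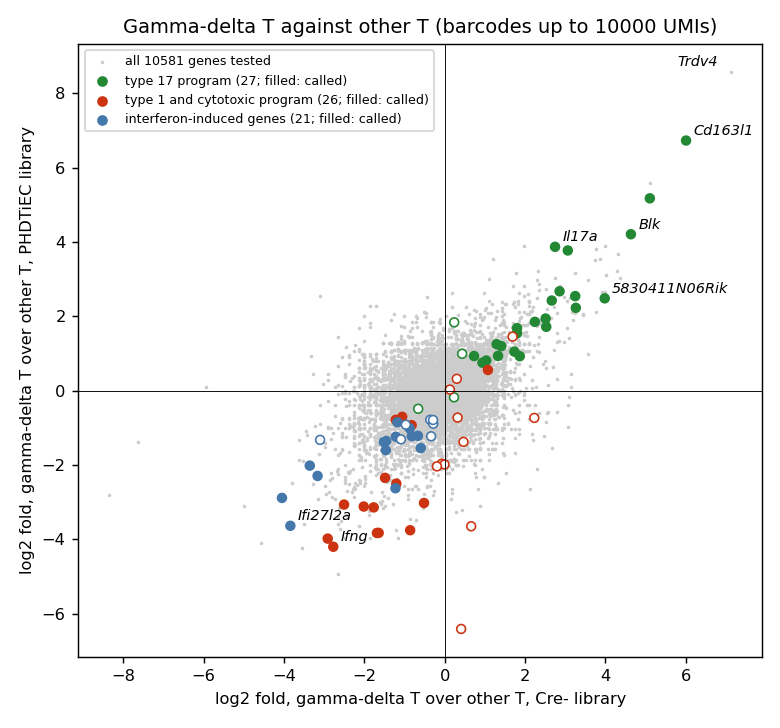
Log2 fold of CPM (prior count of 2) in gamma-delta T over other T cells in the *Cre-* library (x axis) and the library labelled *PHDTiEC* (y axis), for barcodes with at most 10000 UMIs, with 1 point per tested gene and filled symbols for genes called by edgeR. Of the type 17 genes (green) 23 of 27 rose, and of the type 1 (red) and interferon-induced genes (blue) 14 of 26 and 14 of 21 fell. Over all genes tested 3.95% rose and 3.56% fell, and the calls rest on 1 residual degree of freedom.

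Against NK-like barcodes, 0 of 11012 genes were called by edgeR in either direction (0% and 0%), with 523 at an unadjusted p under 0.05, while DESeq2 called 22 higher and 22 lower. At up to 10000 UMIs edgeR called 401 (4.81%) higher and 310 (3.71%) lower of 8345. That fit gave p-values too small to be plausible with 1 residual degree of freedom (for *Il17a*, edgeR unadjusted p = 8.65e-128). Its calls can therefore not be relied on. *Il7r* was seen in 85.5% and 85.2% of members and in 12.5% and 10.0% of NK-like barcodes, and *Cxcr6* in 92.4% and 91.3% against 7.5% and 6.0%. *Gzma*, a granzyme of NK cells, was seen in 1.5% and 0.0% of members and in 77.5% and 84.0% of NK-like barcodes. *Il17a*, *Blk* and *Actn2* had 0 UMIs in the NK-like barcodes of both libraries.

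Within the members, most genes differed by less than a fold of 2 between the libraries. Summed over members, 590 of 5051 genes with at least 50 UMIs (11.7%) were at least 2-fold higher in the library labelled *PHDTiEC* and 74 (1.47%) at least 2-fold lower. Among members with at most 10000 UMIs, these were 47 of 2934 (1.6%) and 19 (0.648%), with the 7 and 18 large barcodes left out. The median log2 ratio of all these genes was 0.15, and 0.08 at up to 10000 UMIs. Of 26 type 17 genes, 1 was at least 2-fold higher and 2 were lower, beside 11.7% higher and 1.47% lower of all genes. Their median log2 ratio was -0.41, and 0.04 at up to 10000 UMIs, where 0 of 25 passed a fold of 2. *Il17a* had a log2 ratio of -0.51 (-0.64 to -0.39), and of 0.04 (-0.08 to 0.17) at up to 10000 UMIs. *Blk* was at -0.40 and 0.14, and *Cxcr6* at -0.41 and 0.17.

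*Trdv4* and *Tcrg-V6* were higher in the library labelled *PHDTiEC* at up to 10000 UMIs. *Trdv4* had 196 UMIs in 124 members of the *Cre-* library and 499 in 165 of the library labelled *PHDTiEC*, a log2 ratio of 1.08 (0.84 to 1.33), and *Tcrg-V6* had 34 and 82, a log2 ratio of 1.00 (0.41 to 1.63). *Pdcd1* was at 0.82 (0.43 to 1.22), *Il2ra* at 0.75 (0.15 to 1.38) and *Cd163l1* at 0.45 (0.14 to 0.77), while *5830411N06Rik* was at -0.51 (-1.04 to 0.01). With all members, the ratios were 0.48 for *Trdv4*, 0.31 for *Pdcd1* and -0.12 for *Cd163l1*. *Tcrg-V6* was then at 59.0 and 75.8 CPM, a log2 ratio of 0.36 whose interval began at -0.21 and held 0. *Rsf1*, *Kcnq1ot1* and *Plin2*, a chromatin gene, a noncoding RNA and a lipid droplet gene, were at 1.67, 1.59 and 1.32 at up to 10000 UMIs. Several other differences at that limit belonged to genes known from other cells. The stromal gene *Acta2* had 4 and 57 UMIs (log2 ratio of 3.57), and the neutrophil genes *S100a8* and *S100a9* (-3.06 and -2.86), the tubule gene *S100g* (-3.07) and the myeloid genes *Tyrobp*, *Fcer1g* and *Il1b* (-2.77, -1.69 and -1.63) were lower.

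*Ccl5*, *Nkg7* and *Trac* were lower in the members of the library labelled *PHDTiEC*. *Ccl5* had 474 and 179 UMIs in 22 and 23 members, a log2 ratio of -2.33 (-2.59 to -2.08), and of -1.85 at up to 10000 UMIs. *Nkg7* was at -2.11 and -1.49 (all members, then at up to 10000 UMIs), *Trac* at -1.51 and -0.95 and *AW112010* at -1.45 and -0.92. For 12 type 1 genes the median was -1.18, and -0.27 at up to 10000 UMIs. At that limit 5 of 11 were at least 2-fold lower, beside 0.648% of all genes. *Areg* was at -2.17 and -1.83 and *Xcl1*, a chemokine of cytotoxic cells, at -3.18 and -2.70, with 44.4% of the *Xcl1* UMIs of the *Cre-* library in 1 barcode. *Gzma* had 69 UMIs in 2 members of the *Cre-* library and 0 in the other.

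Among genes of which no barcode held over 25% of the UMIs, *Fxyd4*, *Cldn4* and other genes known from tubule epithelium had the highest ratios with all members. *Acta2*, which exceeded that limit, had 4 and 600 UMIs, a log2 ratio of 6.30, and the median of 4 stromal markers was 4.50. *Fxyd4*, a collecting duct gene, had 3 UMIs in 3 members of the *Cre-* library and 560 in 18 of the library labelled *PHDTiEC*, of which 7 lay in members with at most 10000 UMIs. *Cldn4* had 5 and 441 UMIs, *Hsd11b2* 13 and 658 and *Mal2* 5 and 182, and at up to 10000 UMIs these were 3 and 9, 13 and 6, and 1 and 5. *Frk*, *Klf5*, *Nav1*, *Tjp1*, *Rragd* and *Epn3* had at most 2 UMIs in the *Cre-* library and 56 to 66 in the other. On the low side, *Tyrobp*, a myeloid and NK adaptor, was at -1.43, *Plek* at -1.47, *Susd3* at -1.29, *Gm19585* at -1.82 and *AY036118* at -1.27. At up to 10000 UMIs *Tyrobp* was at -2.77 (-3.67 to -1.97), *Gm19585* at -1.39 and *AY036118* at -0.61, while the intervals of *Plek* at -0.61 (-1.41 to 0.18) and *Susd3* at -0.32 (-1.12 to 0.48) held 0. *Plek* was at 0.30 without members that held markers of other lineages. *Tyrobp* and *AY036118* were at 1.19 and 4.29 after subtraction of the profile of barcodes under 100 UMIs, whose scale rests in part on mixed barcodes.

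Genes of hypoxia and glycolysis gave small ratios within the members. The median log2 ratio was 0.24 for 13 targets of hypoxia-inducible factor, of which 2 were at least 2-fold higher and 1 lower. It was 0.35 for 15 glycolysis genes, of which 4 were higher. The shares over all genes were 11.7% higher and 1.47% lower. At up to 10000 UMIs the medians were -0.08 and -0.05, and 0 of 7 and 0 of 13 passed a fold of 2. *Hilpda* was lower in the library labelled *PHDTiEC*, with 282 and 240 UMIs and a log2 ratio of -1.16 (-1.42 to -0.91), and of -0.62 (-0.89 to -0.35) at up to 10000 UMIs. *Ldhb* was at 1.85 with all members and -0.15 without the large barcodes. Of 20 immediate early and stress genes, which dissociation of tissue can induce, 11 were at least 2-fold higher, beside 11.7% of all genes. Their median was 1.27, and at up to 10000 UMIs 0 of 15 passed a fold of 2, with a median of 0.06. *Fos* had 441 and 2440 UMIs, and 175 and 220 at up to 10000 UMIs.

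**Figure D5:**
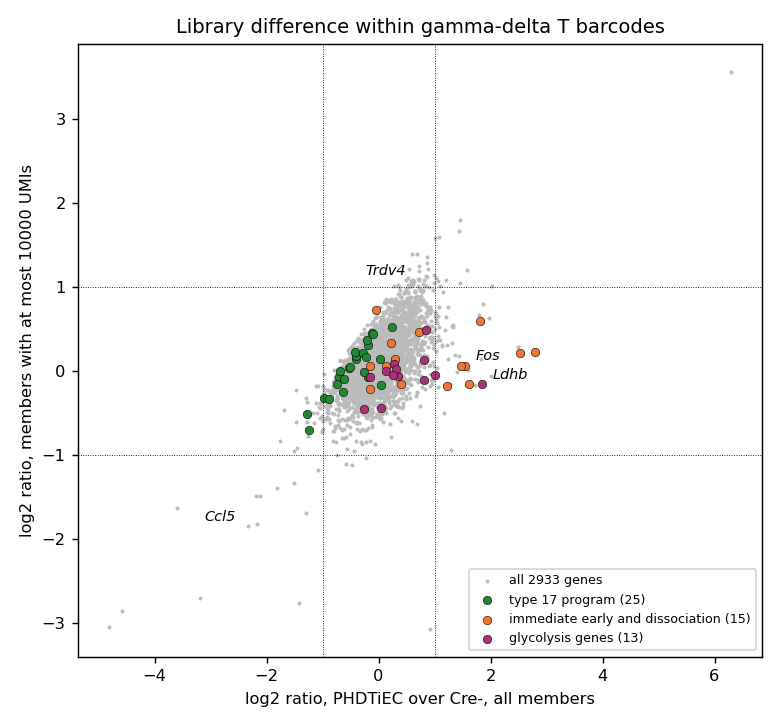
Log2 ratio of CPM in gamma-delta T members, the library labelled *PHDTiEC* over the *Cre-* library, with all members (x axis) and with members of at most 10000 UMIs (y axis), with 1 point per gene with at least 50 UMIs in each set and counts above 0 in both libraries; dotted lines mark a fold of 2. The immediate early (orange) and glycolysis genes (purple) that lie to the right on the x axis sit near 0 on the y axis, and the type 17 genes (green) lie within a fold of 2 on the y axis.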

How the data were processed

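Cell suspensions of 2 whole kidneys were measured with the 10x Chromium 3′ kit, and the authors aligned reads to mm10 with Cell Ranger (version 4 per the file headers). They deposited unfiltered UMI counts for 32285 genes, with totals of 136004367 (*Cre-*) and 146758812 UMIs (*PHDTiEC*). The deposited counts were used as they stand, without ambient correction.

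Barcodes with 500 to 100000 UMIs, at least 200 genes, at most 50% mitochondrial UMIs and log10 genes at 0.8 or more of log10 UMIs were kept. The members, the gene lists and the markers were chosen with earlier results of these data known. Groups followed the sample labels, and levels are UMIs summed over members, as CPM of the member total.

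Shares carry exact binomial (Clopper-Pearson) intervals, log2 ratios the exact binomial interval of the split of counts, and the ratio of shares a log-normal (Katz) interval. A share of 0 is limited by 3 counts. In the tables of all genes, those with at least 50 UMIs over both libraries entered the count past a fold of 2. Named genes were those of the lists seen in at least 10% of members or past a fold of 2, the 10 highest and 10 lowest ratios where no barcode gave over 25% of the UMIs of the higher library, and the 15 highest and 10 lowest called folds with 1 direction in both libraries.

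Sums of members, other T and NK-like barcodes were tested in edgeR 4.0.16 under R 4.3.3 (TMM, quasi-likelihood, library as a block, at least 10 UMIs over the 4 sums in the filter), with DESeq2 1.42.0 as an alternative. The procedure was also run on simulated sums with a fixed dispersion and without mixed barcodes, so that run does not cover such barcodes. Each type gave 2 sums from the same mice, so p-values rest on 1 residual degree of freedom and on 2 mice, and such p-values are uncertain. Alternatives changed the kept barcodes, the limits of the members, the lineages left out, the normalization and filters. The mapping of Vgamma and Vdelta names to genes follows common usage. V segment and transcript sequences came from GENCODE vM21. 1 gene is not reported here and was left out of the type 17 list and panel after the other choices were fixed. Python 3.11.15, numpy 2.4.6, scipy 1.17.1 and pandas 2.3.3 were used.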

Additional observations from a re-analysis of the deposited data

How the results depend on the processing

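Each genotype had 1 library, so no replicate could be left out and differences between the libraries rest on 2 mice. No paired analysis was possible because each genotype had 1 mouse, so that no pairs of mice exist between genotypes, while the fits of members against other cells had the library as a block. The ratios of shares kept their direction under the alternatives run. The share of members with the type 17 panel was 89.8% in the library labelled *PHDTiEC* when 1 UMI of *Trdc* or *Tcrg-C1* sufficed, and without members with a *Trac* UMI the type 1 panel was at 17.5% in the *Cre-* library and the type 1 median at -0.54.

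Counts and medians between the libraries moved with several settings. Without members that held other-lineage markers, 35 genes were at least 2-fold higher and 8 lower, and the medians were 0.17 (type 17), -0.18 (targets of hypoxia-inducible factor), 0.016 (glycolysis) and 0.040 (immediate early). At up to 10000 UMIs, a limit chosen after seeing the data, these were 47, 19, 0.041, -0.079, -0.052 and 0.064, with type 1 at -0.27. With the mean over members of counts per 10000, 388 genes were higher, and the medians were 0.0026 (type 17), 0.072 (glycolysis) and 0.47 (immediate early). The profile of barcodes under 100 UMIs was scaled by macrophage, tubule and neutrophil markers summed over the members. This put its share at 39.8% and 8.13%. In the *Cre-* library a single barcode held 750 of 766 proximal tubule UMIs and another maximum was 597 of 1218 neutrophil UMIs. Mixed barcodes thus entered that share, which does not measure free RNA alone. After its subtraction 1294 genes were higher and 234 lower, with medians of -0.88, 0.70 and 3.46. With a minimum of 20 UMIs, 1419 were higher and 213 lower, and type 1 was at -2.11. The direction of the type 17 median thus changed with these settings, and the cause was not tested. *Plek* (0.30), *Frk* (-0.98), *Hsd11b2* (-0.88), *Tjp1* (-0.98) and *Epn3* (-1.98) changed direction without other-lineage markers, *Hsd11b2* (-1.38) and *Epn3* (-0.85) at up to 10000 UMIs, and *Tyrobp* (1.19) and *AY036118* (4.29) after the subtraction.

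Against other T cells, the counts of genes that rose and fell were 189 and 176 with at least 3 UMIs of *Trdc* and *Tcrg-C1*, 112 and 77 with at least 1, 182 and 152 with *Trdc* alone, 254 and 130 with at least 1 CD3 UMI, 128 and 132 without members with a *Trac* UMI, 390 and 331 without other-lineage markers, 418 and 377 at up to 10000 UMIs, 165 and 158 without a filter, 6 and 2 with at least 50 UMIs over the 4 sums, 10 and 2 without the library block, and 39 and 25 in DESeq2. Against NK-like barcodes they were 31 and 15 with at least 3 UMIs, 150 and 100 with at least 1, 17 and 5 with 1 CD3 UMI, 247 and 179 without other-lineage markers, 401 and 310 at up to 10000 UMIs, 143 and 83 without a filter, 6 and 2 without the block, and 22 and 22 in DESeq2. The fit against NK-like barcodes at up to 10000 UMIs gave implausibly small p-values, so its counts can not be relied on. The fit against other T cells at that limit also gave very small p-values with 1 residual degree of freedom, so its counts are uncertain. The named folds against other T cells had 392 alternative values, which include the folds of each library alone, without a test. The direction was the same in 345, with the call kept or no adjusted p to call by, and in 47 the call was lost. Named genes were chosen with 1 direction in both libraries, so the direction of the folds of each library alone was set by the choice. A gene seen in few members cannot be compared at this depth.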

Other observations

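Some gamma-delta T cells lay outside the limits that chose the members. Barcodes with the CD3 and receptor UMIs of members that were left out for *C1q* or for proliferation genes numbered 24 in the *Cre-* library (17 and 7) and 22 in the library labelled *PHDTiEC* (18 and 4). They held 13.2% and 6.0% of all *Il17a* UMIs of kept barcodes, and barcodes with exactly 1 UMI of *Trdc* or *Tcrg-C1* held 2.4% and 6.5%. *Il17f* was divided otherwise, with 24.4% and 37.3% of its UMIs in members and 52.1% and 46.7% in other T cells. *Areg* UMIs lay mostly outside T cells, with 77.6% and 87.8% of them in barcodes other than T and NK-like cells. *Trdv4* was seen in 10.0% and 12.0% of NK-like barcodes, which had no CD3 UMI by definition, and in 0.1% and 0.0% of macrophages. *Cd79b*, a B cell receptor chain, was seen in 19.1% and 13.1% of members and in 3.9% and 3.2% of other T cells, while its partner *Cd79a* was at 0 in all members.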
